A study of Camelus dromedarius with 10 samples.

Results

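VGF and SCG2 encode precursors of the granin class, and both mRNAs were described here in the rostral supraoptic nucleus (SON) of the dromedary camel. The rows were those whose Ensembl gene IDs the study's list of differential expression pairs with VGF (ENSCDRG00005014790) and SCG2 (ENSCDRG00005002315), which makes 2 of the 22444 gene IDs in the count table. Both passed the filter on low counts, as did 14432 IDs in all. Both were chosen by their higher counts in water-deprived than in control camels, so the size of that difference is given as a description without a test. In the fit across all genes, which calls both, 0.499% of the genes tested were called in either direction, and nothing is read from that count.

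The SON is a hypothalamic nucleus whose large magnocellular neurones (MCNs) make vasopressin and oxytocin and send them to the posterior pituitary. RNA was taken from the nucleus of 1 side of male dromedary camels with free access to food and water (control, n = 5) or with food but no water for 20 days (water deprivation, WD, n = 5). Each library comes from 1 camel and was depleted of ribosomal RNA. Libraries are named by their group and the number in their label, as CON2, CON3, CON4, CON5 and CON13 for controls and WD6, WD7, WD8, WD9 and WD15 for WD. No genetic change or drug treatment is described for either group. The punches hold glia and vessels as well as neurones, and in such bulk RNA a change in the number of cells of a type and a change in RNA per cell cannot be told apart.

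Granins are acidic proteins that are sorted into dense-core granules, where convertases cut them into peptides. VGF is cut into many peptides, and some of them, the neuroendocrine regulatory peptides, have been found in vasopressin neurones. SCG2 encodes secretogranin II, the precursor of secretoneurin, which is also stored in granules of MCNs. The chromogranins CHGA and CHGB help to form the granules, SCG3 binds chromogranin A at the granule membrane, and PCSK1N encodes proSAAS, an inhibitor of the convertase made by PCSK1.

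The study designed these primer pairs for qRT-PCR of both transcripts. They are shown as the sequences by which the study measured each symbol, and no part is marked by capitals. They were not matched to the sequence of either gene ID. The qRT-PCR values were not analysed here.
VGF forward: actgcgagatttcagtccga
VGF reverse: cgtgcgagtttctgtctctg
SCG2 forward: caaatcgagcaggccatcaa
SCG2 reverse: gagccttttgcttaccgagg

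Between 1665098 and 8126641 read pairs were counted per library, but from 27.7% to 76.1% of these belonged to 5 gene IDs that exceed 1% of some library. Outside these dominant IDs, CON13 kept 397495 counts and WD6 kept 1106575, whereas the other 8 libraries kept at least 2078393. Values of CON13 and WD6 are therefore the least precise, and the main results are also given without them. Levels are CPM (counts divided by library size and scaled to 1e+06) after TMM scaling, which reduces the weight of such dominant genes.

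VGF mRNA was low in every control SON and high in every WD SON. It stood at 51.2 CPM in CON2, 65.8 CPM in CON3, 26.3 CPM in CON4, 63.7 CPM in CON5 and 43.0 CPM in CON13. It stood at 1427 CPM in WD6, 725.3 CPM in WD7, 361.7 CPM in WD8, 476.9 CPM in WD9 and 1012 CPM in WD15. The groups did not overlap, and WD8, the lowest WD library, was 5.50 times CON3, the highest control. Of the 14432 genes tested, 2.62% had groups that did not overlap, and 1.34% had all WD libraries above all controls. The mean was 50.0 ± 16.2 CPM in controls and 800.6 ± 430.2 CPM in WD (SD, n = 5 each), a ratio of 16.0. The fitted log2 fold change (LFC) was 3.99 with a standard error of 0.363, and no tested gene had a higher LFC.

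VGF was counted well in all but 1 library. Its counts ranged from 2354 in WD8 to 5687 in WD7 among WD camels, and from 36 in CON13 to 435 in CON5 among controls. The 36 counts of CON13 give an exact 95% Poisson interval of 30.1 to 59.6 CPM, which covers counting error only. That upper bound lay below the lowest WD value. Without CON13 and WD6 the LFC of VGF was 3.62, and over all fits that left out 1 library it ranged from 3.68 to 4.16.

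SCG2 mRNA was also higher in WD, by a smaller amount, and its groups nearly touched. It stood at 30.3 CPM in CON2, 26.3 CPM in CON3, 43.4 CPM in CON4, 46.7 CPM in CON5 and 13.2 CPM in CON13. It stood at 85.4 CPM in WD6, 141.8 CPM in WD7, 48.9 CPM in WD8, 111.9 CPM in WD9 and 80.0 CPM in WD15. WD8 was only 1.05 times CON5, the highest control, and the exact 95% Poisson intervals of this pair (43.6 to 54.5 CPM and 41.7 to 52.1 CPM) overlapped. The mean was 32.0 ± 13.6 CPM in controls and 93.6 ± 35.1 CPM in WD (SD, n = 5 each), a ratio of 2.93. The LFC was 1.48 with a standard error of 0.289, and 32 tested genes, SCG2 included, had an LFC at least as high.

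The lowest SCG2 value rested on 11 counts in CON13, with an exact 95% Poisson interval of 6.57 to 23.5 CPM, and the other libraries held between 111 and 1295 counts. Without CON13 and WD6 the LFC of SCG2 was 1.36, and over fits that left out 1 library it ranged from 1.27 to 1.65. The separation of the SCG2 groups depended on the scaling. With DESeq2 size factors the lowest WD library remained 1.05 times the highest control, and with library totals that leave out the dominant IDs it was 1.11 times. With plain library totals the groups overlapped, since WD6 then fell to 0.848 times CON4. The lowest WD value of VGF was between 5.47 and 5.94 times its highest control under all 4 scalings.

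**Figure D1:**
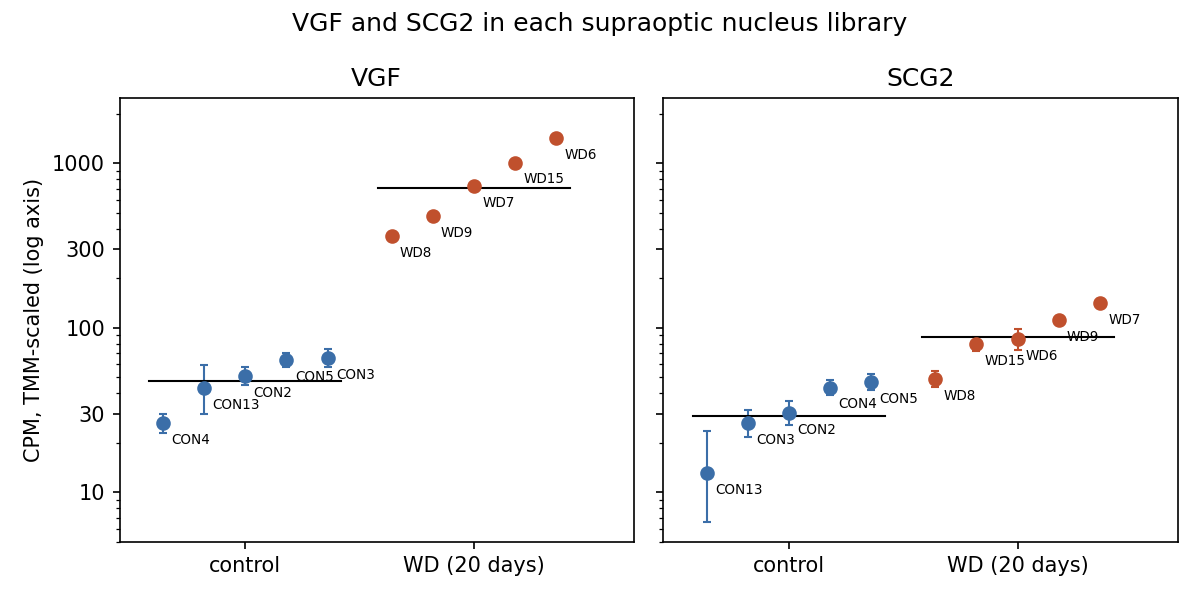
Levels of VGF (left) and SCG2 (right) in each library, in TMM-scaled CPM on a log axis, for 5 control (blue) and 5 WD (orange) camels, with points ordered by value within a group. Bars are exact 95% Poisson intervals of the counts and black lines the geometric means; the VGF groups lie far apart, while WD8 and CON5 are almost level for SCG2.

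Relative to each other, the 2 precursors shifted towards VGF in WD. The count of VGF per count of SCG2 in the same library needs no scaling factor, although without transcript lengths it does not say which mRNA was more abundant. It was 1.69 in CON2, 2.50 in CON3, 0.606 in CON4, 1.36 in CON5 and 3.27 in CON13. It was 16.7 in WD6, 5.11 in WD7, 7.40 in WD8, 4.26 in WD9 and 12.6 in WD15. All WD ratios lay above all control ratios, with WD9 at 1.30 times CON13. The mean log2 ratio was 0.70 ± 0.94 in controls and 3.01 ± 0.84 in WD (SD, n = 5 each), a difference of 2.31, or 4.95-fold. CON4 was the only library with fewer VGF than SCG2 counts, and without it the difference was 1.95.

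Within each group, the ratio of VGF to SCG2 was higher in libraries of lower depth. With group means removed, the log2 ratio and the log2 of the counts outside the dominant IDs had a Pearson r of -0.858 (exact permutation within groups, p = 0.00354, adjusted p = 0.0248) and a Spearman rho of -0.964 (exact permutation p = 2.08e-04, adjusted p = 0.00146; 10 libraries, two-sided). Without CON13 and WD6, which are both the farthest from the median depth and the lowest in depth, r was -0.934. These relations were looked for after the ratios had been seen, and adjusted p-values are over 7 relations of VGF, SCG2 and their ratio with each other, depth and RNA integrity.

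Taken singly, the members had correlations of opposite sign with depth, and neither passed the threshold of 0.05 after adjustment. These values pool both groups, and whether they differ between controls and WD was not tested. For SCG2, r with log2 depth was 0.747 (exact permutation p = 0.0332, adjusted p = 0.116) and rho was 0.770 (exact permutation p = 0.0201, adjusted p = 0.0705), and without CON13 and WD6 r was 0.662. For VGF, r was -0.397 (exact permutation p = 0.243, adjusted p = 0.340) and rho was -0.491 (exact permutation p = 0.161, adjusted p = 0.225), and without these libraries r was -0.577. RNA integrity number (RIN), as the study lists it, had an r of -0.580 with the log2 ratio (exact permutation p = 0.0947, adjusted p = 0.166) and a rho of -0.669 (exact permutation p = 0.0619, adjusted p = 0.143), and without WD7 and WD15, the farthest from the median RIN, r was -0.485. Against SCG2 alone RIN had an r of 0.588 (exact permutation p = 0.0763, adjusted p = 0.166) and a rho of 0.602 (exact permutation p = 0.0819, adjusted p = 0.143), with an r of 0.555 without WD7 and WD15. Against VGF alone it had an r of -0.189 (exact permutation p = 0.645, adjusted p = 0.735) and a rho of -0.340 (exact permutation p = 0.412, adjusted p = 0.480), with an r of -0.105 without the same pair.

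Each control was also set beside the WD library nearest to it in log2 depth. WD15 was the nearest to both CON2 and CON3, and WD9, which had the lowest WD ratio, was in no pair. The WD ratio was 7.48 times the control ratio for CON2 and WD15, 5.05 times for CON3 and WD15, 8.44 times for CON4 and WD7, 5.43 times for CON5 and WD8 and 5.10 times for CON13 and WD6. The last pair is the least alike in depth, with 397495 and 1106575 counts outside the dominant IDs. With log2 depth as a covariate the log2 difference was 2.67 (SE 0.319), against 2.31 (SE 0.562) without it. It was 2.01 (SE 0.515) with RIN as a covariate and 2.30 without CON13 and WD6.

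**Figure D2:**
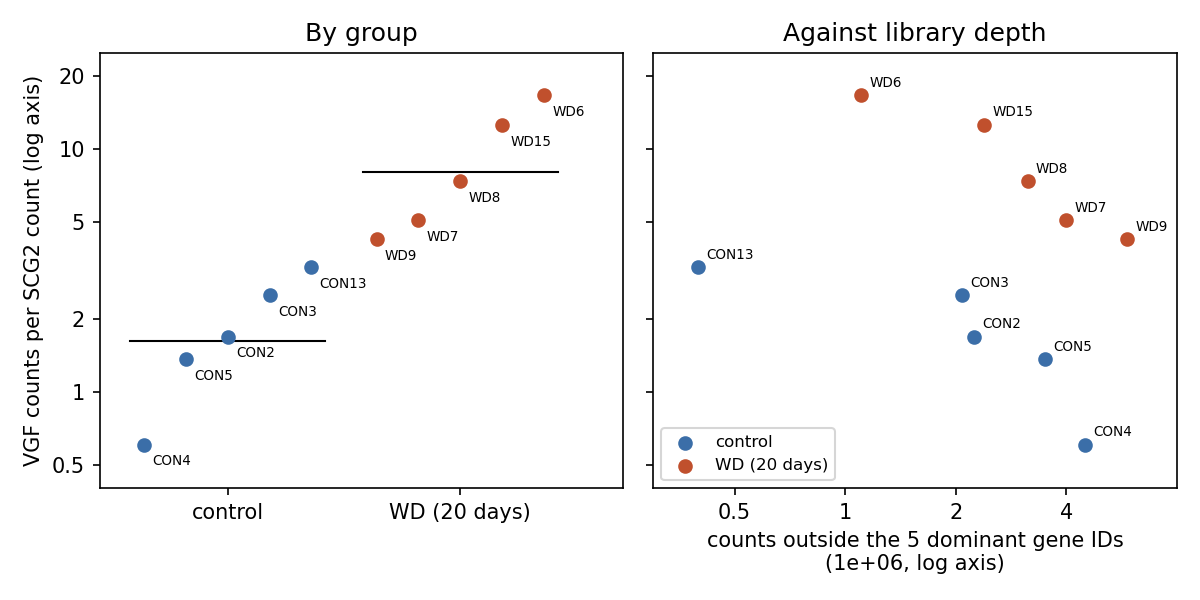
Counts of VGF per count of SCG2 in each library (log axis), by group on the left and against counts outside the 5 dominant gene IDs (in units of 1e+06, log axis) on the right, for control (blue) and WD (orange) camels. Black lines are geometric means; within each group the ratio falls as depth rises, from 3.27 in CON13 to 0.606 in CON4 and from 16.7 in WD6 to 4.26 in WD9.

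Among camels of the same group, no relation between the levels of the 2 members was detectable with 10 libraries. The deviations of VGF and SCG2 from their group means, in log2 CPM, had a Pearson r of 0.120 (exact permutation within groups, p = 0.735, adjusted p = 0.735) and a Spearman rho of -0.00606 (exact permutation p = 1, adjusted p = 1; 10 libraries, two-sided). Without WD6 and WD8, the libraries farthest from the median of VGF, r was -0.165, and without CON13 and WD6 it was 0.135. WD8 was the lowest WD library for both genes, whereas WD6 was the highest for VGF and near the group mean for SCG2. CON4 was the lowest control for VGF and the second highest for SCG2.

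Both genes varied more among libraries of a group than genes of their level usually did. The pooled SD within groups was 0.68 log2 CPM for VGF and 0.66 log2 CPM for SCG2. Among the 500 tested genes nearest in mean log2 CPM, the median SD was 0.31 for both, and 98.8% of the genes near VGF and 98.6% of those near SCG2 had a smaller SD. VGF had an SD of 0.54 log2 CPM in controls and 0.80 log2 CPM in WD, and SCG2 an SD of 0.73 log2 CPM in controls and 0.58 log2 CPM in WD. Without CON13 and WD6 the pooled SD was 0.63 log2 CPM for VGF and 0.55 log2 CPM for SCG2, above 98.0% and 98.2% of the genes nearest in level. Without CON13 alone, the SD of SCG2 was 0.51 log2 CPM, above 93.2% of such genes. This spread is a description and was not tested. Each library comes from 1 camel, so differences between camels and between libraries, as in depth or RIN, cannot be told apart in it.

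**Figure D3:**
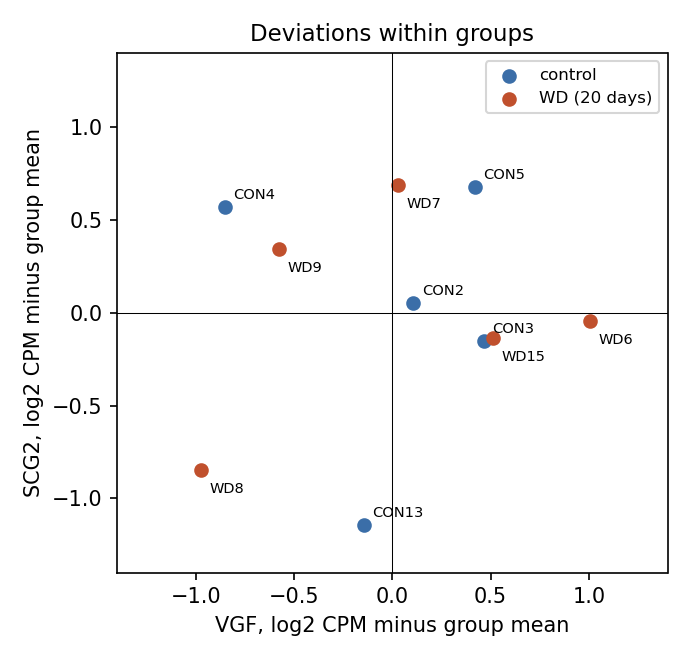
Deviation of SCG2 from its group mean against that of VGF, both in log2 CPM, for 5 control (blue) and 5 WD (orange) libraries. The points scatter around the zero lines without a trend, with r = 0.120 (exact permutation p = 0.735).

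Likeness from camel to camel was read over the 3388 other tested genes with a symbol. By Pearson r of the deviations from group means over the 10 libraries, the genes with a symbol nearest to VGF were ABCB11 (r = 0.931), ZSCAN2 (r = 0.930), GRK2 (r = 0.903), BRD1 (r = 0.890) and NR2F6 (r = 0.886). None of these 5 passed the threshold between WD and control, and their LFC ranged from -1.23 for ABCB11 to 0.65 for NR2F6. Nearest to SCG2 were P4HB (r = 0.943), a disulfide isomerase of the endoplasmic reticulum, DNAJB9 (r = 0.935), a co-chaperone there, GNPNAT1 (r = 0.932), an enzyme of amino sugar synthesis, ZNF518B (r = 0.918), a zinc finger protein, and SSR1 (r = 0.913), a subunit of the translocon-associated complex. Of these, P4HB was upregulated by WD with an LFC of 0.81 (SE 0.172, padj = 0.0393, edgeR), from a mean of 83.4 CPM to 148.1 CPM. This call was kept in 1 of 10 fits that left out 1 library, with padj up to 0.178 without CON3. Without CON13 and WD6, r ranged from 0.855 to 0.948 for the 5 genes near VGF and from 0.876 to 0.955 for those near SCG2, and among all 14431 genes, with or without a symbol, ABCB11 moved from rank 6 to 14 for VGF and P4HB from rank 4 to 88 for SCG2. Of all 14431 genes, 26 had an r with VGF at least that of NR2F6, with a highest r of 0.979, and 13 had an r with SCG2 at least that of SSR1, with a highest r of 0.960. These r values are descriptions over libraries whose depth differs. Some of the genes named were low, so counting error weighs on their r. Mean CPM in controls and WD were 4.76 and 2.14 for ABCB11, 4.73 and 7.87 for NR2F6, and 2.96 and 5.68 for GNPNAT1. The other member ranked 5758th of 14431 genes by likeness to VGF and 6610th by likeness to SCG2.

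The granins differed in the size of their LFC. Of 7 listed granins, 6 were paired with a gene ID, and all 6 were tested (SCG5 is not analysed here). Beside VGF and SCG2, SCG3 was upregulated by WD, and CHGA, CHGB and PCSK1N did not pass the threshold. In the edgeR fit 0.270% of all tested genes were called higher and 0.229% lower in WD. SCG3 and SCG2 have a symbol here only through the part of the study's list that is sorted by p, so counts of upregulated granins are raised by how symbols were found. Of the 4 granins paired by tables not sorted by p, VGF alone was called. The median LFC of the 6 granins was 0.73 and that of all tested genes 0.02, but VGF, SCG2 and SCG3 were found through this contrast, and the other 3 granins had an LFC between -0.10 and 0.12.

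SCG3 ranged from 49.0 to 139.5 CPM in controls and from 161.3 to 377.4 CPM in WD, without overlap. Its LFC was 1.34 (SE 0.280, padj = 0.0349, edgeR). This call was not firm, since it was kept in 3 of 10 fits that left out 1 library, and padj was 0.177 without CON3. SCG2 itself was called in 6 of 10 such fits and VGF in 10 of 10. These 2 counts only describe the fits, since this contrast chose both genes. Without CON2, CON3, WD7 or WD9, and also with library totals only, VGF was the only granin called.

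CHGB, the most counted of the chromogranins, stood at 146.6 ± 16.3 CPM in controls and 157.1 ± 44.5 CPM in WD (SD, n = 5 each), with an LFC of 0.10 (SE 0.197, padj = 0.935). CHGA stood at 58.7 ± 7.50 CPM and 64.7 ± 20.9 CPM, with an LFC of 0.12 (SE 0.201, padj = 0.920). PCSK1N stood at 161.1 ± 32.2 CPM and 150.2 ± 83.7 CPM, with an LFC of -0.10 (SE 0.270, padj = 0.949). For all 3 the groups overlapped.

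Ratios inside a library set the members against the other granins without a scaling factor. The count of CHGA per count of CHGB was 0.400 ± 0.028 in controls and 0.417 ± 0.074 in WD (SD, n = 5 each). VGF per CHGB ranged from 0.180 to 0.432 in controls and from 2.78 to 10.4 in WD, a 14.4-fold difference of geometric means. SCG2 per CHGB ranged from 0.0932 to 0.298 in controls and from 0.375 to 0.824 in WD, a 2.90-fold difference. Neither ratio overlapped between groups. Against CHGA the fold was 14.0 for VGF and 2.82 for SCG2, also without overlap. Against PCSK1N it was 17.4 for VGF without overlap and 3.52 for SCG2, whose groups overlapped (0.0611 to 0.354 in controls and 0.288 to 1.09 in WD). SCG2 per SCG3 differed less in its mean, at 0.339 ± 0.060 in controls and 0.404 ± 0.120 in WD, and the groups overlapped. The proportion was not kept in single WD libraries, however. Controls ranged from 0.268 to 0.418, WD6, WD7 and WD15 lay above all of them, and WD8 lay below at 0.253. Only WD9, at 0.297, lay within the control range. The SD of the log2 ratio was 0.26 in controls and 0.47 in WD. Within groups, the deviations of SCG3 had an r of 0.821 with those of SCG2 and of -0.373 with those of VGF, and without CON13 and WD6 these were 0.749 and -0.412.

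**Figure D4:**
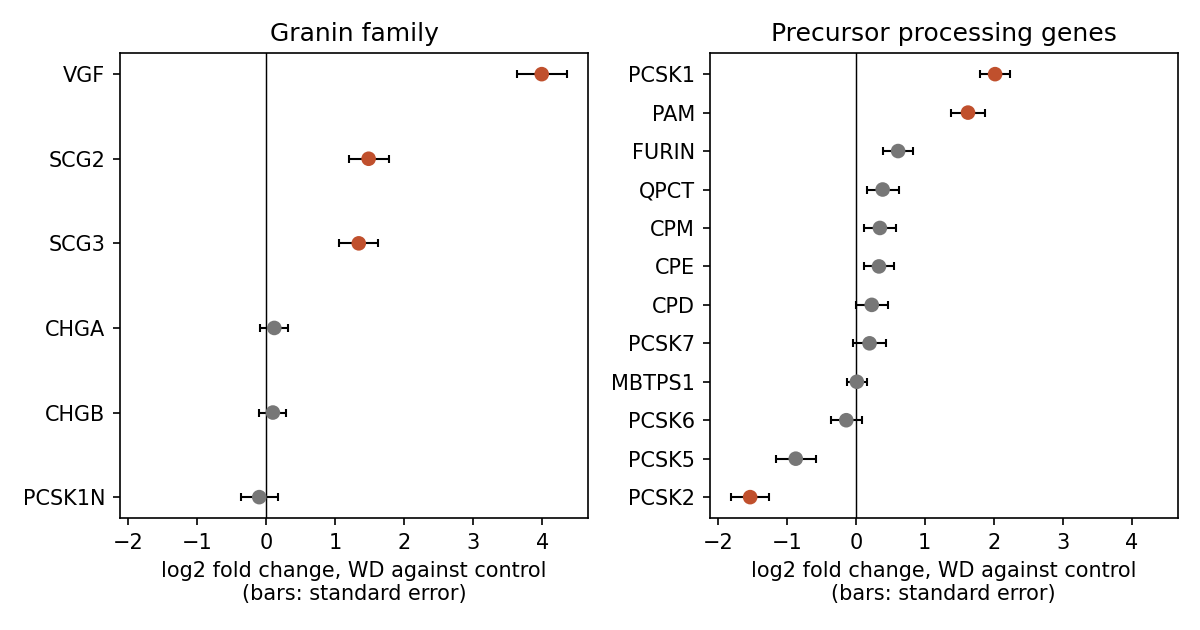
LFC of WD against control (horizontal axis, log2) for the tested granins (left) and precursor processing genes (right), with standard errors as bars. Orange points have a padj of at most 0.05 in edgeR's test; VGF, SCG2 and SCG3 lie to the right of CHGA, CHGB and PCSK1N, which lie near 0, and PCSK2 lies to the left.

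Among enzymes that cut and finish peptide precursors, changes went both ways. Of 13 listed genes, 12 were tested, 2 were upregulated, 1 was downregulated and 9 did not pass the threshold (CTSL did not pass the filter, with 91 counts over all libraries). Among all tested genes, 0.270% were called higher and 0.229% lower in WD. The median LFC was 0.28. PCSK1, a prohormone convertase that cuts VGF, was upregulated with an LFC of 2.02 (SE 0.223, padj = 2.49e-04, edgeR), from 227.1 ± 50.0 CPM to 922.6 ± 257.0 CPM (SD, n = 5 each). PAM, which amidates peptides, was upregulated with an LFC of 1.63 (SE 0.243, padj = 0.00313), but its symbol also came only from the part sorted by p. Of the 11 tested processing genes paired by other tables, 1 was called higher and 1 lower. PCSK2, the other main neuroendocrine convertase, was downregulated with an LFC of -1.53 (SE 0.279, padj = 0.0144), from 50.3 ± 21.4 CPM to 17.8 ± 5.63 CPM, and its padj was 0.0538 without WD8.

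VGF per PCSK1 count ranged from 0.102 to 0.319 in controls and from 0.402 to 1.82 in WD, without overlap. SCG2 per PCSK1 count ranged from 0.0679 to 0.189 in controls and from 0.0761 to 0.118 in WD, with overlap. The lowest of these control values is that of CON13, with 11 SCG2 counts. The other controls were at 0.111 or above, and 4 of 5 WD libraries lay below that.

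Of 44 neuropeptide precursors, 37 had a gene ID and 11 passed the filter; the other 26 had between 4 and 105 counts over all 10 libraries. The AVP and OXT mRNAs are not analysed here. PDYN, the prodynorphin gene, was upregulated with an LFC of 1.93 (SE 0.220, padj = 3.02e-04, edgeR), from 162.2 ± 46.4 CPM to 618.1 ± 127.3 CPM (SD, n = 5 each). NPB, the neuropeptide B gene, was downregulated with an LFC of -1.94 (SE 0.386, padj = 0.0237), from 15.1 ± 8.73 CPM to 3.68 ± 1.61 CPM, and this call was lost in 5 of 10 fits that left out 1 library, with padj up to 0.0769 without WD15. The remaining 9 did not pass the threshold, although NUCB2, the nucleobindin gene whose product is the precursor of nesfatin, with an LFC of 0.92 (SE 0.222, padj = 0.0900, edgeR), was called by DESeq2 and with RIN, fragment size group or depth group as a covariate. NUCB2 is named for these calls, after its values were seen. Its symbol also came only from the part of the study's list sorted by p. The median LFC of the 11 was -0.37. In the fit across all genes, 0.270% were called higher in WD and 0.229% lower. VGF per PDYN count was 0.142 to 0.577 in controls and 0.768 to 2.00 in WD, whereas SCG2 per PDYN count was 0.0809 to 0.248 in controls and 0.111 to 0.186 in WD. The overlap of SCG2 per PDYN rested on CON13, since the other controls were at 0.206 or above and all 5 WD libraries lay below that.

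Neurotrophins were scarcely counted. Of 11 listed neurotrophins, their receptors and proteins reported to bind VGF peptides, 8 had a gene ID and 3 passed the filter. BDNF, which is known to induce VGF, had 9 counts over the 5 controls (0 to 5 per library) and 65 counts over the 5 WD libraries (2 to 25 per library). It did not pass the filter, and without a filter its LFC was 2.35 (SE 0.930, padj = 0.50, edgeR). None of the 3 tested receptors was called by edgeR's test, none had an unadjusted p under 0.05, and DESeq2 called 0 of 4. Their median LFC was -0.17. NTRK2, the receptor of BDNF, stood at 297.3 ± 30.9 CPM in controls and 315.3 ± 60.7 CPM in WD (SD, n = 5 each), with an LFC of 0.08 (SE 0.175, padj = 0.935).

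Of 23 factors that act through cAMP response and AP-1 elements or mark neuronal activity, 18 had a gene ID, 17 were tested and 2 were upregulated, with a median LFC of 0.30. For all tested genes, the share called higher in WD was 0.270%. CREM, a cAMP-responsive factor, had an LFC of 1.77 (SE 0.266, padj = 0.00313, edgeR), and FOS, an AP-1 subunit, had an LFC of 1.48 (SE 0.217, padj = 0.00313). The other 15 did not pass the threshold, down to ATF3 with an LFC of -0.76 (SE 0.581, padj = 0.743). Of these 15, ATF4, which had an LFC of 0.72 (SE 0.198, padj = 0.172, edgeR) and was singled out after its values were seen, was called by DESeq2 and with RIN or depth group as a covariate. Within groups the deviations of CREM had an r of 0.771 with SCG2 and 0.226 with VGF, and those of FOS had an r of -0.325 with SCG2 and -0.227 with VGF. Without CON13 and WD6 the r of CREM was 0.566 with SCG2 and 0.345 with VGF, and that of FOS was -0.254 and -0.263. The promoters of VGF and SCG2 were not analysed here.

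SIM1, OTP and ARNT2, 3 of 7 listed magnocellular markers, were counted in every library. ARNT2 made up most of their sum, which was 378.9 to 529.7 CPM in controls and 391.0 to 541.0 CPM in WD. OTP stood at 39.5 ± 12 CPM in controls and 25.7 ± 7.24 CPM in WD (SD, n = 5 each), with an LFC of -0.58 (padj = 0.454, edgeR), and was the 1 of the 3 with an unadjusted p under 0.05, a level that 9.31% of all tested genes reached (1344 of 14432). edgeR and DESeq2 each called 0 of these 3. VIP, a marker of the neighbouring suprachiasmatic nucleus, had 32 counts over all libraries, and RORB, the other marker of that nucleus with an ID, had an LFC of -0.47 (padj = 0.793, edgeR). The 6 microglial markers (AIF1, CSF1R, CX3CR1, P2RY12, IRF8 and SPI1) all had an LFC above 0, from 0.62 to 0.98, and summed to 165.0 to 253.2 CPM in controls and 187.1 to 576.3 CPM in WD. edgeR and DESeq2 each called 0 of these 6 microglial genes, of which 5 had an unadjusted p under 0.05. AIF1, CX3CR1 and P2RY12 have a symbol only through the part of the study's list sorted by p, which raises that count. Of those paired by other tables, CSF1R and IRF8 had an unadjusted p under 0.05, and SPI1 had one of 0.118 (edgeR). None of these microglial markers was at 0 in either group, and their part in the values of VGF and SCG2 was not tested. The 3 tested endothelial markers summed to 84.9 to 149.2 CPM in controls and 107.3 to 219.4 CPM in WD, and the 3 tested oligodendrocyte markers to 50.6 to 117.0 CPM and 39.2 to 94.0 CPM. Both tools called 0 in these lists, with 2 of 3 endothelial and 0 of 3 oligodendrocyte markers at an unadjusted p under 0.05. Of the lists for neurones and astrocytes, 1 marker each was tested, NEFL with an LFC of -0.63 (padj = 0.402, edgeR) and ALDH1L1 with an LFC of 0.55 (padj = 0.390, edgeR). The symbols of NEFL and ALDH1L1 also came only from the part sorted by p.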

How the data were processed

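SON RNA of 5 control and 5 WD camels was sequenced as stranded, ribosomal RNA depleted, paired-end libraries. The authors used BBDuk for trimming, STAR with the Camdro2 assembly for alignment and FeatureCounts to count read pairs per gene, and deposited these counts without normalization. The strand setting, the annotation release and the handling of pairs shared between genes are not given in the sources used here, so genes that overlap are uncertain. No other ID had counts within 1% of those of VGF or SCG2 in every library. A second deposited table, of counts divided by DESeq2 size factors, was not used.

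The members and gene lists were chosen with earlier results of these data known. A symbol could be given to 4351 of the 22444 IDs through supplementary tables of the study. WD and control were compared with edgeR 4.0.16 (quasi-likelihood F test, robust, TMM, filterByExpr; R 4.3.3), with Benjamini-Hochberg adjustment over 14432 genes and a threshold of 0.05. It called 72 genes, 0.499% of those tested. The standard error is the size of the LFC divided by the square root of F. CPM are TMM-scaled, with a prior count of 0.5 on the log2 scale. Intervals are exact Poisson intervals at 95%. Correlations were tested by all 14400 permutations within groups, with scipy 1.17.1. Replicates differed beyond counting error, as chi-square divided by its degrees of freedom was 8.78 or more for every pair within a group.

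The text names VGF and SCG2, all granins, in each other list the genes past the threshold and those with the highest and lowest LFC, and the 5 nearest genes of each member. Other genes (CTSL, BDNF and the cell type markers) are named as members of their lists. Values of some listed genes are not reported here. Alternatives were DESeq2 1.42.0, its size factors, library totals with and without the 5 IDs above 1% of a library, a fit without robust estimation, a minimum of 10 counts per library and no filter, RIN, depth group and a fragment size group (under 300.0 bp) as covariates, a prior count of 2, and each library left out. Fits, spread and nearest genes without the 2 libraries of lowest depth, the pairs of libraries nearest in depth, depth and RIN as covariates of the ratio, and the relations with depth and RIN were added after the data were seen. Sequences other than primers, and the study's qRT-PCR and plasma data, are not analysed here.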

Additional observations from a re-analysis of the deposited data

Results flagged for a closer look

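Single libraries far from the rest of their group were sought by Dixon's test at the 95% level in 28 sets of 5 log2 values: the granins, the called genes of the lists and the log2 ratio of VGF to SCG2, each in controls and in WD. It picked out 1 set, where chance gives about 1 in 20. CREM in CON13 stood at 0.36 log2 CPM, which rested on 1 count, whereas the other controls lay between 2.57 and 3.04 log2 CPM. No library of VGF, SCG2 or their ratio stood apart in this way.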

How the results depend on the processing

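No paired analysis was possible because control and WD camels share no replicate number. VGF kept its direction in every alternative fit, with an LFC of 3.62 to 4.01 over 11 other settings and 3.68 to 4.16 with each library left out, as did SCG2, with 1.36 to 1.64 and 1.27 to 1.65. The log2 ratio of VGF to SCG2 differed by 1.95 to 2.56 with each library left out and by 2.01 to 2.67 under the other settings. The correlation of their deviations ranged from -0.237 (without WD8) to 0.355 (without CON4) and did not pass the threshold in any fit, and the spread within groups moved by less than 1.5 times in every setting.

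Counts of called genes moved more. Against 72 genes, DESeq2 called 209, depth group as a covariate 224, library totals only 10, and fits without 1 library from 40 (without CON3) to 102 (without WD6), with 42 without CON5. With library totals only, 1 granin (VGF), 1 processing gene (PCSK1), 1 neuropeptide precursor (PDYN) and 0 cAMP and activity factors were called. With 1 library left out, 1 to 3 granins and 1 to 2 neuropeptide precursors were called. Of the cAMP and activity factors, 1 (FOS) was called with at least 10 counts in every library, a filter that CREM does not pass, and 4 (ATF4, CREM, FOS and FOSL2) with depth group as a covariate. The cause of the other changes was not tested. Promoter motifs and protein features were not run. Counts of 36 for VGF and 11 for SCG2 limit the precision of CON13.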
